A study of Homo sapiens with 12 samples.

Results

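Keratins 7, 8, 18, 19, 23, 80 and 81 are grouped here as keratins of simple and luminal epithelium, with KRT81 a hair keratin that some breast cancer lines make. Their 7 genes, KRT7, KRT8, KRT18, KRT19, KRT23, KRT80 and KRT81, were taken by symbol from a table of 56832 genes, and all 7 had enough counts to be tested. The list was chosen with earlier results of these data known, so it is not independent of their values. They were measured by RNA sequencing in MDA-MB-468 cells, a human line of the basal-like class of breast cancer. Cells of the TRB pool stably carried pCDH-TRB, a vector for thyroid hormone receptor beta, and cells of the EV pool carried the empty vector pCDH-EV. Both pools were kept for 24 hours without hormone, in phenol-red free medium with charcoal-stripped serum, and then received the thyroid hormone T3 at 10 nM or its NaOH vehicle for 24 hours. The 12 libraries fell into 4 groups of 3: TRB cells with T3, TRB cells with vehicle, EV cells with T3 and EV cells with vehicle. Each vector is represented by 1 stable pool, so the receptor and any other difference between the pools cannot be told apart. Nothing in the labels tells whether replicate libraries started from separate cultures, so the p-values reflect the scatter among these libraries alone, and that scatter may be technical.

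Keratins are the intermediate filament proteins of epithelial cells. Each filament is built from pairs of a type I and a type II chain, so that a cell needs both types, and an unpaired chain is degraded. KRT8 and KRT18 form the first pair that epithelia make and persist in simple and luminal epithelium, where KRT7 (type II) and KRT19 (type I) join them, while KRT5, KRT14, KRT6 and KRT17 mark basal and stressed stratified cells. Liganded thyroid hormone receptors are transcription factors that raise some genes and lower others, and keratin genes of skin are among their known targets. KRT23 (type I) and KRT80 (type II) are lower, less studied epithelial chains, and KRT81 is of type II.

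The genes lie in the 2 keratin clusters of the genome, except that KRT18, a type I gene, sits beside KRT8 in the type II cluster. On GRCh38, KRT80, KRT7, KRT81, KRT8 and KRT18 are on chromosome 12, and KRT19 and KRT23 on chromosome 17. The stretches below are 60 coding bases of each of the 3 type I members, from the GENCODE version 29 transcripts, written 5′ to 3′ on the gene's own strand. They encode the conserved end of the rod domain, where chains of the family are most alike, and are shown because they bear on how far counts of these genes can be told apart. Capitals mark the bases that differ from KRT18.
KRT18: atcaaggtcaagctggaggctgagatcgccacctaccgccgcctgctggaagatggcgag
KRT19: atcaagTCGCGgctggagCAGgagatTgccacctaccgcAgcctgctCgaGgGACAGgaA
KRT23: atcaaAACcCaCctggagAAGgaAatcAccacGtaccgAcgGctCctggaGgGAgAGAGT
These lie at chr12:52952275-52952334 (plus strand, exon 6 of KRT18), chr17:41523782-41523841 (minus strand, exon 6 of KRT19) and chr17:40925359-40925418 (minus strand, exon 7 of KRT23). KRT19 differed from KRT18 at 18 of the 60 bases and KRT23 at 22. The matching stretches of type II genes, not shown, were more alike. The hair keratin KRT86 differed from KRT81 at 0 of 60 bases, KRT8 at 6, KRT80 at 7 and KRT7 at 9.

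Whole coding sequences were compared as well. KRT81 and KRT86, a hair keratin next to it on chromosome 12, were identical at 93.6% of aligned coding bases, against 72.8% for KRT7 and KRT8, the next closest type II members, and 62.6% for KRT18 and KRT19. Of all runs of 50 bases in the KRT81 transcript, 44.6% also occurred in transcripts of other genes, and of runs of 100 bases 30.3% did, KRT86 being the gene that shared the most. For KRT8 the share was 36.9% of runs of 50 bases and 7.75% of runs of 100, and for KRT18 it was 47.6% and 16.6%. KRT8 and KRT18 have many processed pseudogenes, and they also overlap each other over 525 exonic bases on opposite strands, where counts without strand could not be assigned to either. The figure for runs of 50 bases was 10.8% for KRT7, 4.95% for KRT23, 1.79% for KRT19 and 0.42% for KRT80. Counts that the authors gave to pseudogenes of the 7 keratins came to 1123 over 21 of 30 listed pseudogenes, or 0.168% of the 670077 counts of their parent genes, with KRT8P12 at 931, KRT18P4 at 81 and KRT19P1 at 48. Of the hair keratins near KRT81, KRT86 had 647 counts over the 12 libraries, KRT83 had 8 and KRT85 was listed at 0.

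Gene counts totalled 11335783 to 11915181 per library in TRB cells with T3, 7311623 to 8904361 in TRB cells with vehicle, 10323437 to 11955825 in EV cells with T3 and 4241863 to 7851876 in EV cells with vehicle, so all T3 libraries were deeper than all vehicle libraries. The mitochondrial ribosomal RNA MT-RNR2 was lower with T3 in both pools, at 477.1 to 767.8 CPM (counts per 1e6 gene counts) in TRB cells with T3 against 5257 to 13190 CPM in TRB cells with vehicle, and at 438.8 to 565.8 CPM in EV cells with T3 against 2410 to 19300 CPM in EV cells with vehicle. The part of depth and of MT-RNR2 in the results was not tested, except that all libraries were also thinned to 1 depth, which changed the calls of KRT18 and KRT23 given below. The transferred gene THRB stood at 311, 344.2 and 331.2 CPM in TRB cells with T3 and at 143.7, 135.6 and 141.4 CPM in TRB cells with vehicle, against 39.9, 37.8 and 37.7 CPM in EV cells with T3 and 43.6, 42.6 and 44.2 CPM in EV cells with vehicle. Every TRB library was thus above every EV library, as labelled, at a log2 fold change of 1.69 with vehicle and 3.10 with T3, and T3 raised the level in TRB cells by 1.23 (SE 0.042, edgeR adjusted p = 1.11e-37). Vector-derived and endogenous THRB reads are counted together. Luminal and basal markers were both present: EPCAM, the epithelial adhesion molecule, had 300.8 to 379.2 CPM and EGFR, a basal-like marker, 4225 to 5664 CPM over the 12 libraries. The oestrogen receptor ESR1 had 5.23 to 10.8 CPM, PGR and TFF3 were listed at 0 in every library, and TP63, the defining factor of basal cells, reached at most 1.46 CPM.

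Levels are compared between genes as CPM per kilobase of the principal transcript. KRT19 was the highest of the 7 in all 4 groups, at 1177 ± 73.9 CPM per kb in TRB cells with T3, 1460 ± 28.04 in TRB cells with vehicle, 1390 ± 44.5 in EV cells with T3 and 1346 ± 40.8 in EV cells with vehicle (SD, n = 3 each), with no overlap with the next gene in any group. KRT8, KRT7 and KRT18 followed together between 584.7 and 736.6 CPM per kb. In TRB cells with T3 these did not overlap, in the order KRT7 (736.6 ± 28.2), KRT8 (676.4 ± 43.7) and KRT18 (584.7 ± 31.8). The gap was narrow between the lowest KRT7 library (706.4) and the highest KRT8 library (704.6). That order depends on the division by length, since by CPM alone KRT8 (1438) was above KRT7 (1292). The lengths were not reduced for runs of bases shared with other genes. Neighbours among KRT7, KRT8 and KRT18 overlapped in each of the other groups. KRT23 and KRT81 were the next level down, at 80.4 ± 4.21 and 71.9 ± 4.89 CPM per kb in TRB cells with T3, 115.1 ± 1.31 and 107.0 ± 8.34 in TRB cells with vehicle, 109.3 ± 3.80 and 120.6 ± 2.78 in EV cells with T3, and 126.9 ± 4.56 and 114.2 ± 5.37 in EV cells with vehicle. They overlapped in both TRB groups, while KRT81 was above KRT23 in EV cells with T3 and below it in EV cells with vehicle. KRT80 was the lowest, at 8.96 ± 0.384 CPM per kb in TRB cells with T3, 20.5 ± 1.22 in TRB cells with vehicle, 22.2 ± 0.641 in EV cells with T3 and 24.1 ± 0.481 in EV cells with vehicle. By CPM alone, KRT19, KRT8, KRT7 and KRT18 ranked between 21 and 72 of the 14549 genes tested in every library.

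**Figure D1:**
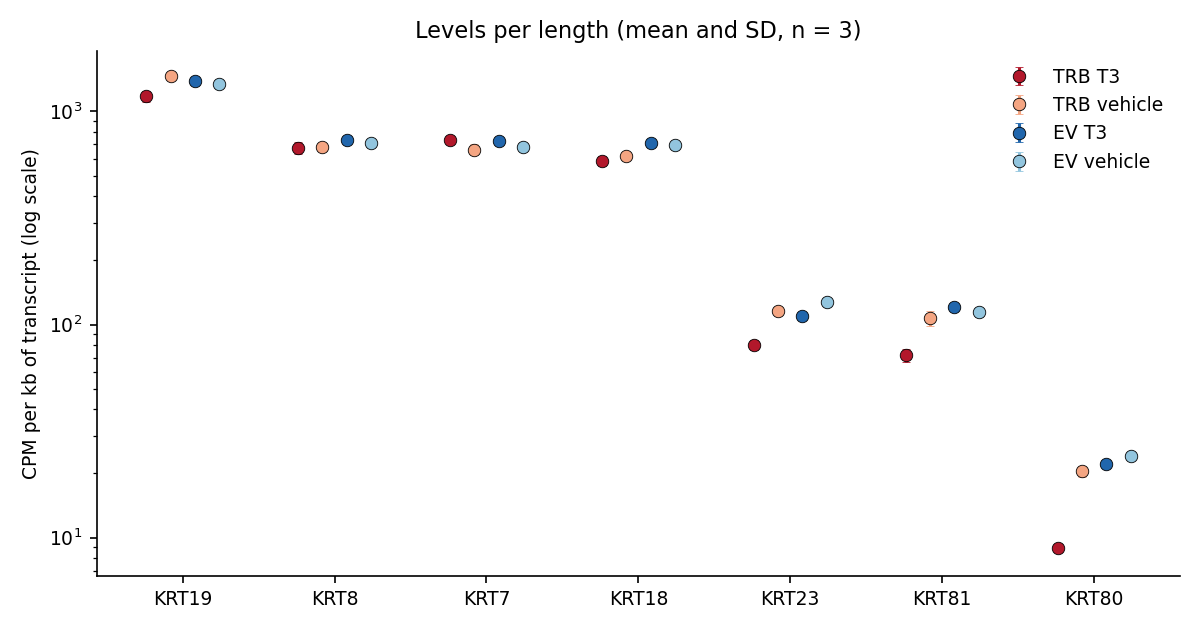
Level of each of the 7 keratins as CPM per kb of transcript on a log axis, by group from left to right TRB T3, TRB vehicle, EV T3 and EV vehicle; points are means and bars the SD of 3 libraries. KRT19 is highest in each group (1177 to 1460 CPM per kb) and KRT80 lowest (8.96 to 24.1).

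With the receptor added, the question was how T3 moved these keratins. KRT80, KRT81, KRT23 and KRT19 fell and KRT7 rose in TRB cells with T3 relative to TRB cells with vehicle, while KRT8 and KRT18 did not pass the test. That was 5 of 7 members at an adjusted p below 0.05 in edgeR's quasi-likelihood test (Benjamini-Hochberg over 14549 genes), in a comparison where 44.4% of all genes tested passed, 22.4% higher and 21.9% lower. The median log2 fold change was -0.31 over the 7 keratins and -0.002 over all genes. In bulk samples, fewer cells that make a keratin and less of its RNA in each cell cannot be told apart.

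KRT80, a type II chain of epithelial cells, changed most. It had 35.7, 35.1 and 32.9 CPM in TRB cells with T3, against 83.9, 79.4 and 74.5 CPM in TRB cells with vehicle. The T3 libraries were all low, and the groups lay far apart. The log2 fold change was -1.20 (SE 0.059, adjusted p = 3.29e-28), a level 0.436 times that with vehicle.

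KRT81, the hair-type keratin, had 133.2, 149.6 and 133.3 CPM in TRB cells with T3, against 223.1, 191.1 and 204.8 CPM in TRB cells with vehicle. The highest T3 library was still below the lowest vehicle library. Its log2 fold change was -0.57 (SE 0.048, adjusted p = 1.45e-14). KRT86, which shares long runs of bases with it, had 5.74, 4.76 and 5.06 CPM in TRB cells with T3 and 5.65, 5.04 and 3.69 CPM in TRB cells with vehicle, with groups that overlapped and a log2 fold change of 0.11 (SE 0.18, adjusted p = 0.659). With the counts of both genes added, an alternative chosen after seeing the data, KRT81 plus KRT86 fell by 0.56 on the log2 scale (adjusted p = 8.4e-15).

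KRT23, a type I chain, had 168.5, 159.1 and 151.8 CPM in TRB cells with T3, against 228.5, 231.4 and 226.3 CPM in TRB cells with vehicle. The groups did not overlap, and the vehicle libraries lay close together. Its log2 fold change was -0.52 (SE 0.042, adjusted p = 1.41e-17). KRT19, the smallest keratin and the most abundant here, had 1606, 1750 and 1551 CPM in TRB cells with T3, against 2074, 2005 and 2008 CPM in TRB cells with vehicle. All T3 libraries were lower than all vehicle libraries, and the log2 fold change was -0.31 (SE 0.043, adjusted p = 6.61e-09).

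KRT7, a type II chain of ductal epithelium, went the other way. It had 1300, 1337 and 1239 CPM in TRB cells with T3, against 1221, 1176 and 1086 CPM in TRB cells with vehicle. The groups were separate by a small margin, and the log2 fold change was 0.15 (SE 0.043, adjusted p = 0.0021), or 11.3% higher with T3. KRT8 had 1485, 1498 and 1331 CPM in TRB cells with T3, against 1522, 1442 and 1391 CPM in TRB cells with vehicle. These groups overlapped, the log2 fold change was -0.01 (95% interval -0.10 to 0.07) and the adjusted p was 0.827. KRT18 had 939.1, 944.8 and 856.1 CPM in TRB cells with T3, against 1002, 957.7 and 940.3 CPM in TRB cells with vehicle. They overlapped too, at a log2 fold change of -0.08 (95% interval -0.165 to 0.001, adjusted p = 0.111). KRT18 passed with the libraries thinned to the depth of the shallowest (-0.12, adjusted p = 0.0224) and with offsets for the GC trend of each library (-0.10, adjusted p = 0.0361). Members whose groups did not overlap were 5 of 7, where 51.9% of all genes tested had groups that did not overlap.

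**Figure D2:**
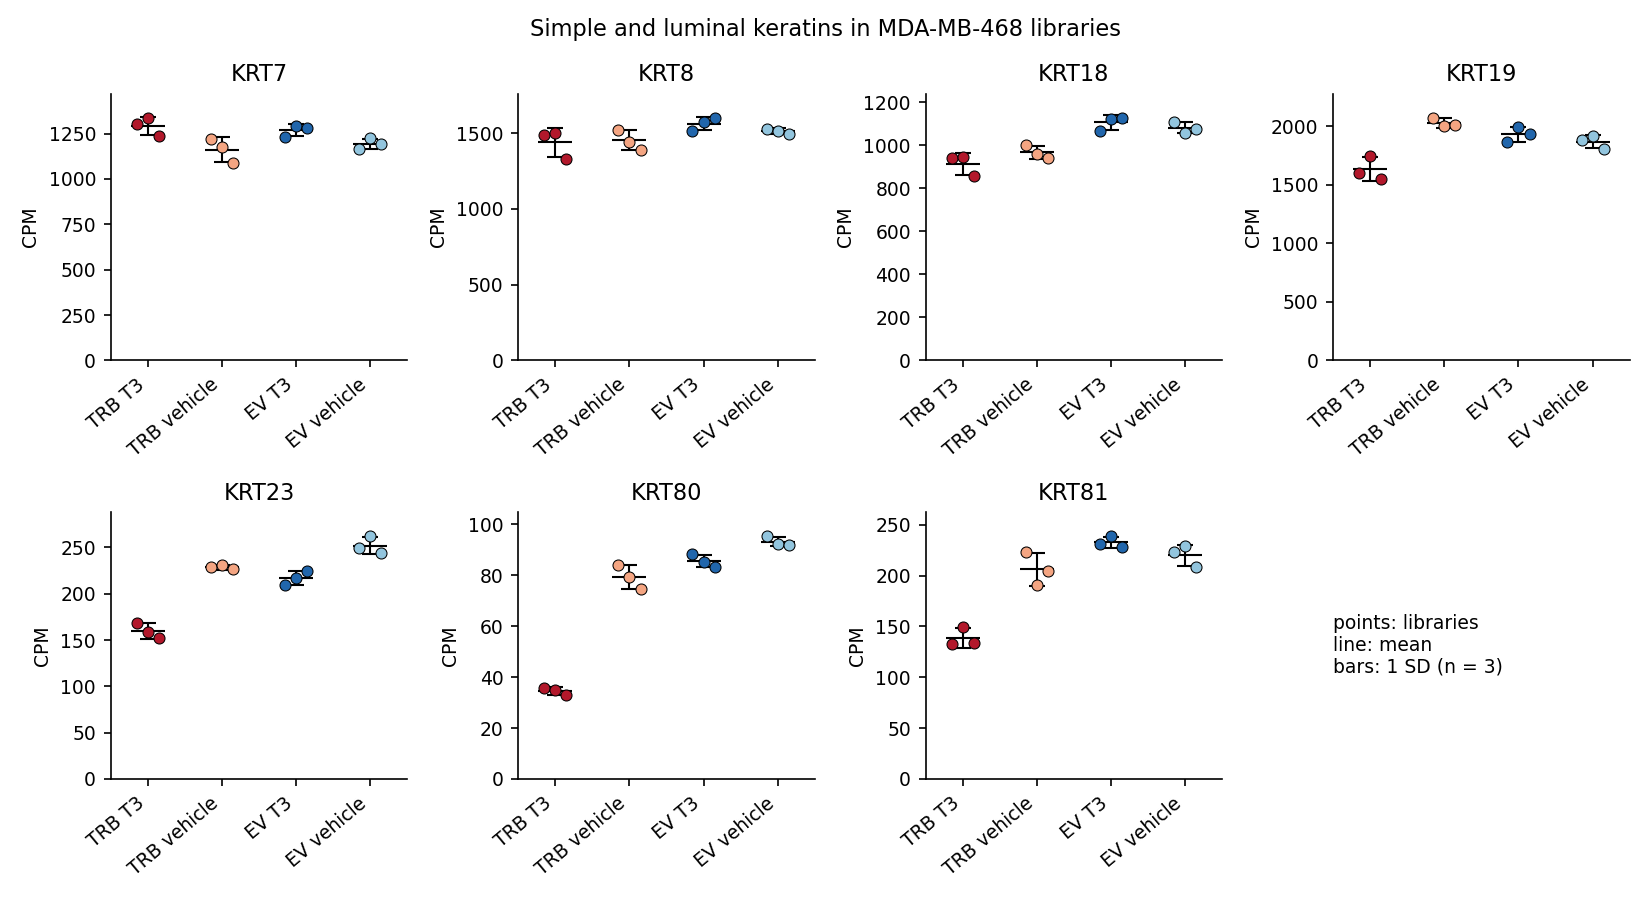
CPM of each of the 7 keratins in every library, with the groups TRB T3, TRB vehicle, EV T3 and EV vehicle from left to right; points are libraries, lines means and bars the SD (n = 3). The 3 TRB T3 libraries of KRT80 (32.9 to 35.7 CPM) lie below the 9 others (74.5 to 95.3 CPM), and those of KRT19, KRT23 and KRT81 are also below all others, whereas KRT8 is nearly level across groups.

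EV cells show what the hormone did without the added receptor. KRT23 fell in EV cells with T3, and it was the 1 member of 7 that passed, where 4.54% of all genes tested did, 2.84% higher and 1.7% lower. Across all genes the number that passed was 660, but leaving out EV vehicle replicate 3 gave 275, EV vehicle replicate 1 gave 396 and EV T3 replicate 2 gave 341. KRT23 had 209.6, 217.1 and 224.7 CPM in EV cells with T3, against 249.8, 262.1 and 244.5 CPM in EV cells with vehicle. The groups did not overlap, and the log2 fold change was -0.21 (SE 0.042, adjusted p = 0.00025), with the largest adjusted p 0.00935 over the fits that left out each library. No member was higher by edgeR's adjusted p or by DESeq2, and 1, KRT7, was at an unadjusted p below 0.05.

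The other 6 members differed little between EV cells with T3 and with vehicle. KRT80 had 88.2, 85.0 and 83.3 CPM in EV cells with T3, against 95.3, 92.3 and 91.8 CPM in EV cells with vehicle, without overlap but at a log2 fold change of -0.12 (95% interval -0.22 to -0.02, adjusted p = 0.217). KRT7 had 1233, 1294 and 1282 CPM in EV cells with T3, against 1164, 1223 and 1192 CPM in EV cells with vehicle, also without overlap, at 0.09 (95% interval 0.01 to 0.17, adjusted p = 0.281). KRT81 had 230.8, 238.7 and 228.4 CPM in EV cells with T3, against 222.8, 229.1 and 208.9 CPM in EV cells with vehicle. Its groups overlapped, and the log2 fold change was 0.08 (95% interval -0.01 to 0.17, adjusted p = 0.409). KRT8, KRT18 and KRT19 had log2 fold changes of 0.05, 0.03 and 0.05, with 95% intervals that spanned 0 and adjusted p between 0.657 and 0.776. Groups did not overlap for 3 of 7 members, against 20.5% of all genes tested.

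The T3 effects of the pools were compared directly by their difference, the effect in TRB cells minus that in EV cells. It was negative and past the threshold for 4 of 7 members, where 23.9% of all genes tested passed, 11.6% of them in the negative direction. For KRT80 the difference was -1.08 (SE 0.079, adjusted p = 1.15e-18) and for KRT81 -0.65 (SE 0.067, adjusted p = 3.1e-11). KRT19 had a difference of -0.36 (SE 0.061, adjusted p = 2.71e-06) and KRT23, which fell in both pools, one of -0.30 (SE 0.059, adjusted p = 3.34e-05). KRT18 (-0.12, 95% interval -0.23 to 0.0025, adjusted p = 0.169), KRT8 (-0.06, 95% interval -0.18 to 0.06, adjusted p = 0.545) and KRT7 (0.06, 95% interval -0.05 to 0.18, adjusted p = 0.5) did not pass. No member had a positive difference past the threshold by edgeR or by DESeq2, nor at an unadjusted p below 0.05. The 4 calls held in all 12 fits that left out a library.

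**Figure D3:**
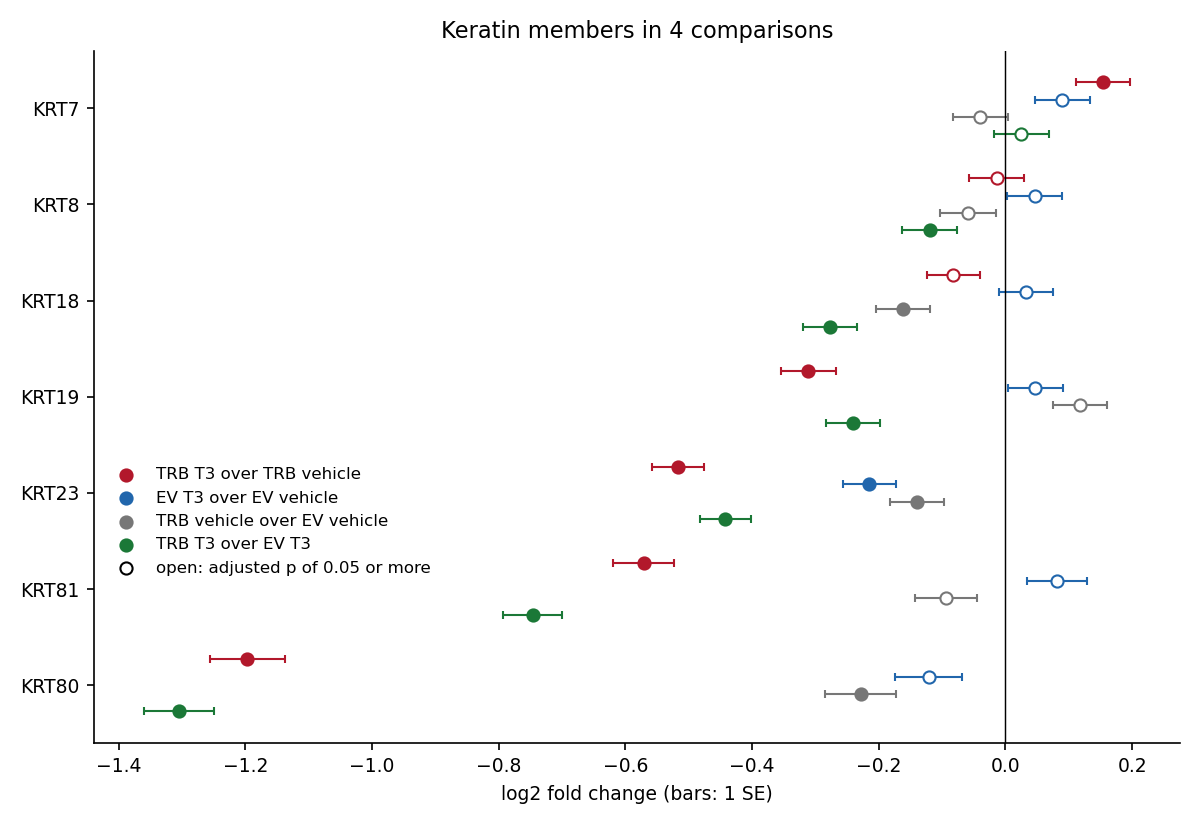
Log2 fold change with 1 SE of each keratin in 4 comparisons: TRB T3 over TRB vehicle, EV T3 over EV vehicle, TRB vehicle over EV vehicle and TRB T3 over EV T3. Filled points passed at an adjusted p below 0.05 and open ones did not. KRT80 reaches -1.20 with T3 in TRB cells, against -0.12 in EV cells, and KRT8 lies between -0.12 and 0.05 throughout.

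The pools were also compared without hormone. KRT80, KRT18 and KRT23 were lower in TRB cells with vehicle than in EV cells with vehicle, 3 of 7 members where 15.3% of all genes tested passed, 7.86% higher and 7.4% lower. KRT18 had 1002, 957.7 and 940.3 CPM in TRB cells with vehicle, against 1110, 1059 and 1076 CPM in EV cells with vehicle. The groups did not overlap, at a log2 fold change of -0.16 (SE 0.043, adjusted p = 0.00429). KRT80 had a log2 fold change of -0.23 (SE 0.056, adjusted p = 0.00198) and KRT23 one of -0.14 (SE 0.043, adjusted p = 0.0152), again without overlap. The KRT23 call was lost without EV vehicle replicate 2 (-0.11, adjusted p = 0.119) and with thinned counts (-0.13, adjusted p = 0.0637). KRT19 was the only member with a group mean above that of EV cells, with no overlap, at 0.12 (SE 0.043, adjusted p = 0.0534). That value sat at the threshold. It did not pass in 9 of the 12 fits that left out a library, at adjusted p up to 0.293, or in 5 of 9 other alternatives, at up to 0.177. It passed in DESeq2 (adjusted p = 0.0403), with GC offsets (0.0129), with a replicate block (0.0424) and when only the compared groups were fitted (0.0174). The fits without TRB T3 replicate 3 (0.0313), EV T3 replicate 1 (0.0412) or EV T3 replicate 3 (0.0488) passed too. KRT81 was at -0.09 (95% interval -0.19 to 0.0025, adjusted p = 0.221), and passed without TRB vehicle replicate 1 (-0.16, adjusted p = 0.0278). KRT8 (-0.06, 95% interval -0.15 to 0.03) and KRT7 (-0.04, 95% interval -0.12 to 0.05) did not pass. No member was higher by edgeR's adjusted p, while 1, KRT19, was by DESeq2 and at an unadjusted p below 0.05. Groups were separate for 4 of 7 members, against 30.1% of all genes.

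With T3 in both pools, KRT80, KRT81, KRT23, KRT18, KRT19 and KRT8 were lower in TRB cells than in EV cells, 6 of 7 members where 40.7% of all genes tested passed, 19.7% of them lower. The TRB libraries with T3 are those of the first comparison, so the 2 comparisons are not independent. KRT80 was at -1.30 (SE 0.056, adjusted p = 9.9e-32), or 0.405 times the level in EV cells with T3, and KRT81 at -0.75 (SE 0.046, adjusted p = 2.18e-19). KRT23 was at -0.44 (SE 0.041, adjusted p = 4.2e-15) and KRT18 at -0.28 (SE 0.042, adjusted p = 8.51e-08). KRT18 was thus lower in the TRB pool both with and without T3. KRT19 was at -0.24 (SE 0.043, adjusted p = 3.43e-06), below EV cells with T3 although it was not lower without hormone. KRT8 had 1485, 1498 and 1331 CPM in TRB cells with T3, against 1513, 1572 and 1601 CPM in EV cells with T3. Its log2 fold change of -0.12 (SE 0.044, adjusted p = 0.0222) was lost without TRB T3 replicate 3 (-0.07, adjusted p = 0.196), EV T3 replicate 2 (-0.12, adjusted p = 0.0647) or EV T3 replicate 3 (-0.11, adjusted p = 0.0648) and with GC offsets (-0.10, adjusted p = 0.0514). KRT7 was at 0.03 (95% interval -0.06 to 0.11, adjusted p = 0.674). No member was higher by edgeR, by DESeq2 or at an unadjusted p below 0.05. Groups did not overlap for 6 of 7 members, against 47.6% of all genes.

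Ordered over the 4 groups, KRT80 and KRT23 were highest in EV cells with vehicle and lowest in TRB cells with T3. For KRT80 the 2 middle groups, EV T3 and TRB vehicle, overlapped, and for KRT23 no neighbouring groups did, with TRB vehicle above EV T3. KRT81 overlapped between neighbours among EV T3, EV vehicle and TRB vehicle, and was lower in TRB T3 without overlap. KRT19 was highest in TRB cells with vehicle and lowest in TRB cells with T3, with the EV groups between them overlapping each other. KRT18 split by pool, with overlap within each pool and none between them. KRT8 had no gap between any neighbouring groups. KRT7 was ordered by treatment, since TRB T3 and EV T3 overlapped, as did EV vehicle and TRB vehicle. The gap between the T3 and vehicle libraries was narrow, from 1223 CPM in EV vehicle replicate 2 to 1233 CPM in EV T3 replicate 1. The T3 effect on KRT7 in EV cells did not pass (edgeR adjusted p = 0.281).

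The sum of the 7, most of it from KRT19, KRT8, KRT7 and KRT18, moved less than KRT80 or KRT81 with T3 in TRB cells. The summed level was 5667, 5873 and 5296 CPM in TRB cells with T3, against 6355, 6082 and 5931 CPM in TRB cells with vehicle. The groups did not overlap, and the log2 ratio was -0.13 (exact two-sided permutation test, p = 0.1, the smallest that 3 against 3 libraries allow). It was 6213, 6525 and 6478 CPM in EV cells with T3 and 6254, 6302 and 6113 CPM in EV cells with vehicle, with overlap and a log2 ratio of 0.04 (exact permutation p = 0.3). TRB cells were at a log2 ratio of -0.02 to EV cells with vehicle (exact permutation p = 0.6) and of -0.19 with T3 (exact permutation p = 0.1).

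The count ratio of KRT8 to KRT18, which needs no scaling between libraries, was 1.581, 1.585 and 1.554 in TRB cells with T3, against 1.518, 1.506 and 1.479 in TRB cells with vehicle. In EV cells it was 1.417, 1.398 and 1.419 with T3, against 1.378, 1.433 and 1.385 with vehicle. All TRB libraries thus had a higher ratio than all EV libraries. The log2 ratio between groups was 0.07 for T3 in TRB cells, 0.10 for TRB over EV cells with vehicle and 0.16 with T3 (exact permutation p = 0.1 each, the smallest possible), and 0.01 for T3 in EV cells (exact permutation p = 0.6). Over all 7 genes, type II counts (KRT7, KRT8, KRT80 and KRT81) came to 1.07 ± 0.016 times the type I counts in TRB cells with T3, 0.898 ± 0.028 in TRB cells with vehicle, 0.968 ± 0.0097 in EV cells with T3 and 0.942 ± 0.013 in EV cells with vehicle (SD, n = 3 each). Neither ratio is divided by transcript length, so they compare groups and do not give the balance of type I and type II RNA. Per kb, KRT8 and KRT18 were closer, at 676.4 and 584.7 CPM in TRB cells with T3 and 711.5 and 692.5 CPM in EV cells with vehicle. KRT19, a type I chain, made up 29.1 ± 0.744% of the members' counts in TRB cells with T3 and 33.15 ± 0.630% in TRB cells with vehicle, and KRT7, a type II chain, 23.03 ± 0.332% and 18.95 ± 0.555%.

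**Figure D4:**
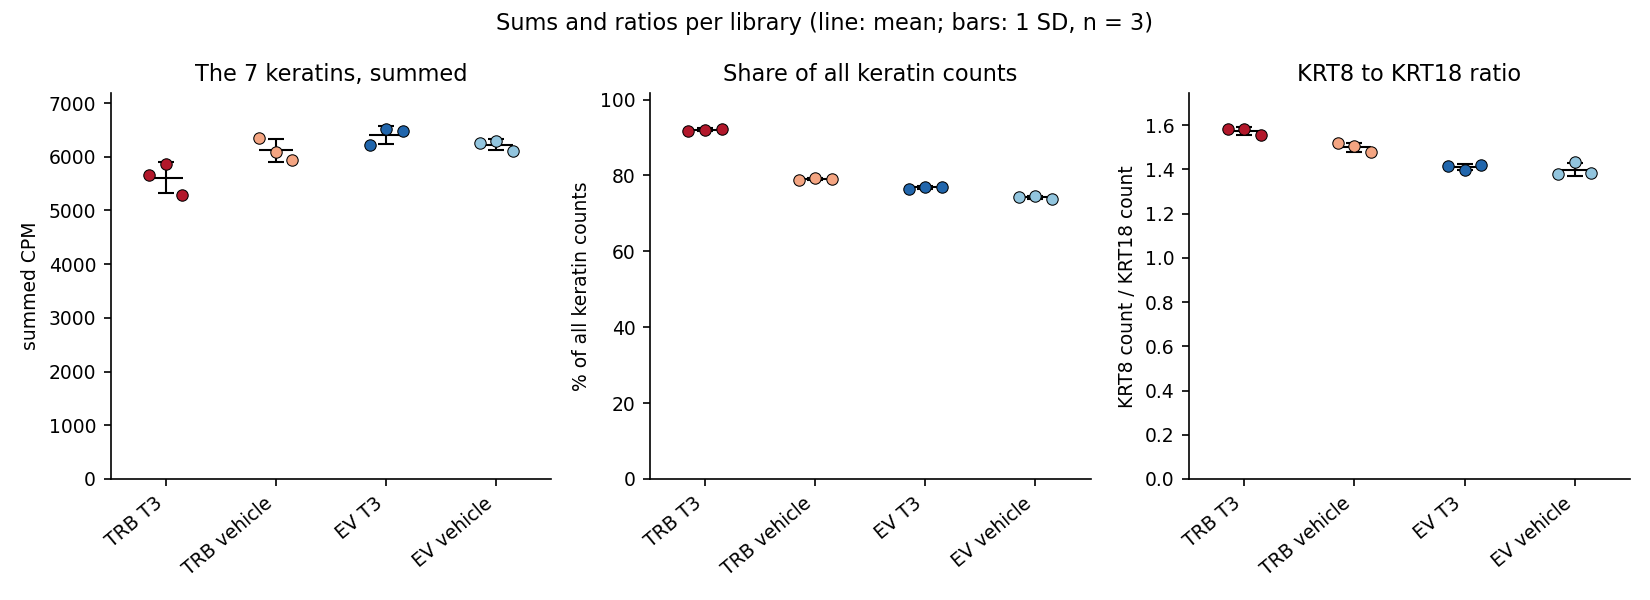
Summed CPM of the 7 keratins, their share of all keratin counts and the count ratio of KRT8 to KRT18, per library, with the groups TRB T3, TRB vehicle, EV T3 and EV vehicle from left to right; lines are means and bars the SD (n = 3). The share is highest in TRB T3 (91.6% to 92.4%), and the KRT8 to KRT18 ratio is higher in the 6 TRB libraries (1.479 to 1.585) than in the 6 EV libraries (1.378 to 1.433).

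The other keratins in the table were described in the same way. Of 48 others in the table, 15 were tested, 16 had no count in any library, and 17 had counts too low to test, at most 30 in all. With T3 in TRB cells 12 of the 15 were lower, where 21.9% of all genes tested were, and 0 were higher, also at an unadjusted p below 0.05 and by DESeq2, and their median log2 fold change was -1.61, against -0.31 for the 7 and -0.002 for all genes. The 2 lists were not tested against each other, and their values overlapped: KRT15 (-0.37) and KRT10 (-0.69) changed less than KRT80 (-1.20), and KRT34, KRT38 and KRT86 did not pass. In EV cells T3 lowered 5 of the 15 by edgeR, where 1.7% of all genes tested were lower, and 2 by DESeq2. It raised 0 of them by either tool and by the unadjusted p. TRB cells with vehicle had 1 of the 15 higher than EV cells, KRT4, and 10 lower, where 7.86% and 7.4% of all genes tested were. TRB cells with T3 had 14 lower than EV cells with T3, where 19.7% of all genes tested were. The difference of the T3 effects passed in the negative direction for 10, where it did for 11.6% of all genes tested.

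KRT5, a main keratin of basal cells, averaged 223.6 ± 23.5 CPM in TRB cells with T3 and 899.7 ± 55.8 CPM in TRB cells with vehicle (SD, n = 3 each), a log2 fold change of -2.01 (SE 0.052, adjusted p = 4.3e-30). In EV cells it averaged 999.3 ± 17.1 CPM with T3 and 1159 ± 3.22 CPM with vehicle, at -0.21 (SE 0.049, adjusted p = 0.00526), a call that DESeq2 did not make (adjusted p = 0.0591). With vehicle, KRT5 was thus at a CPM near that of the abundant simple keratins, and with T3 in TRB cells its counts fell to 0.163, 0.154 and 0.148 of those of KRT8, against 0.633, 0.594 and 0.633 in TRB cells with vehicle. KRT17, a keratin of basal and injured epithelium, was at -1.61 with T3 in TRB cells, KRT16 at -1.73, KRT14 at -1.31, KRT4 at -2.09, KRT6A at -2.07 and KRT6B at -1.92 (largest adjusted p 8.29e-14). Among lower ones, KRT10 was at -0.69, KRT15 at -0.37, KRT9 at -1.30, KRT75 at -2.85 and KRT13 at -1.86. KRT75 lost its call with thinned counts (adjusted p = 0.0934), and KRT13, with 16 counts in TRB vehicle libraries, without TRB vehicle replicate 1 (adjusted p = 0.146) or 3 (adjusted p = 0.0591). KRT34, at 0.289 CPM in TRB cells with T3 and 0.576 CPM in TRB cells with vehicle, did not pass there but was lower in TRB than in EV cells with either treatment.

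In EV cells the other keratins that fell with T3, besides KRT5, were KRT6A (-0.68, adjusted p = 0.000415), KRT6B (-0.46, adjusted p = 0.000477), KRT10 (-0.25, adjusted p = 0.0296) and KRT75 (-1.06, adjusted p = 0.0238). The calls of KRT10 and KRT75 were each lost on leaving out any 1 EV library except EV T3 replicate 1, at adjusted p up to 0.138 and 0.172. That of KRT10 was also lost in DESeq2 (adjusted p = 0.107), with thinned counts (0.102) and with no filter on low counts (0.1). DESeq2 called 2 of the 15 other keratins lower in EV cells, and its result for KRT75 is not given here. The 7 made up a larger part of all keratin counts in TRB cells with T3, 92.01 ± 0.388%, against 79.0 ± 0.262% in TRB cells with vehicle. In EV cells the share was 76.8 ± 0.283% with T3 and 74.3 ± 0.356% with vehicle. Groups did not overlap in either pool.

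**Figure D5:**
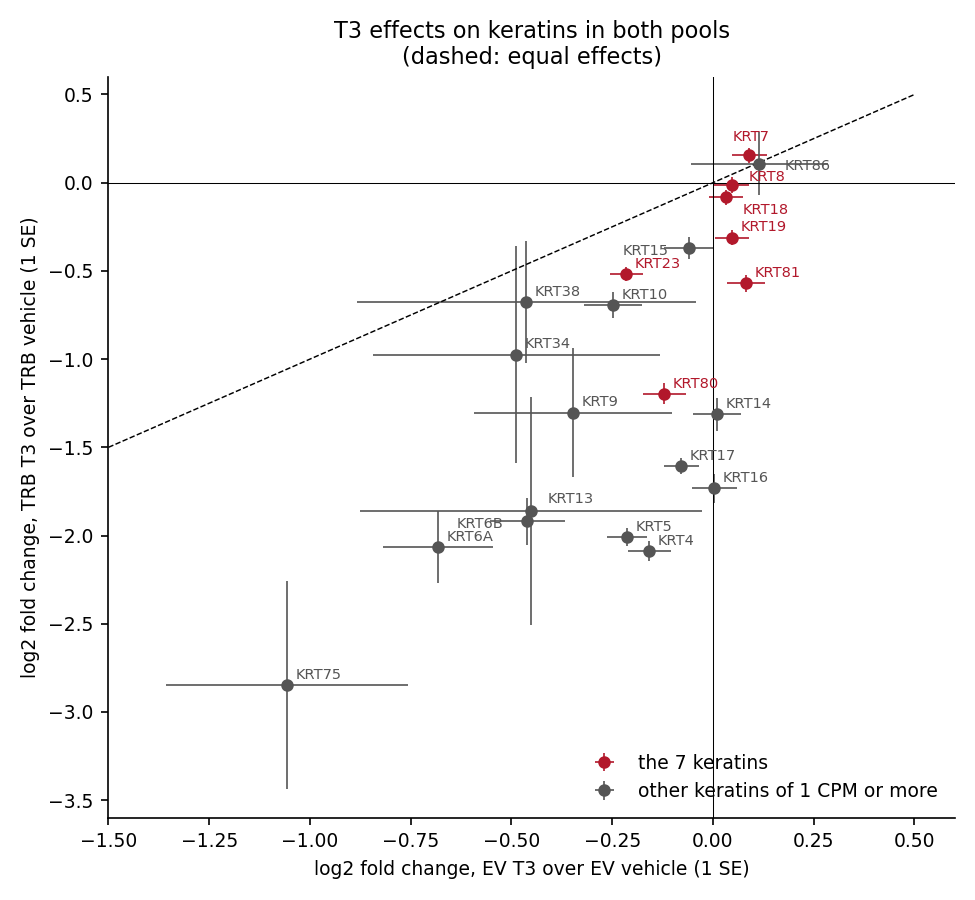
Log2 fold change of T3 in TRB cells against that in EV cells, with 1 SE on each axis, for the 7 keratins and for other keratins tested that reached a mean of 1 CPM in a group; the dashed line marks equal effects. KRT7, KRT8 and KRT18 lie near the line, while KRT80 (-1.20 in TRB cells and -0.12 in EV cells) lies far from it, as KRT14 does (-1.31 and 0.01).

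Keratin filaments are anchored at desmosomes and to other cytoskeletal elements by linker proteins. Of 10 linker genes tested from a list of 12, T3 in TRB cells raised 1 and lowered 6, where 22.4% of all genes tested rose and 21.9% fell, with a median log2 fold change of -0.24. For this and the lists that follow, a share called near the 44.4% of all genes in TRB cells, or the 4.54% in EV cells, is not a result about the list. JUP, the plakoglobin of desmosomes, was at -0.42 (adjusted p = 1.63e-15), PERP, a desmosomal membrane protein, at -0.37 (adjusted p = 4.41e-13) and PLEC, the cytolinker plectin, at -0.40 (adjusted p = 7.49e-13). In EV cells 1 linker rose and 3 fell: PKP3 (0.23, adjusted p = 0.00305), DSP, the desmoplakin to which keratin filaments attach (-0.16, adjusted p = 0.0123), JUP (-0.15, adjusted p = 0.0134) and DST (-0.15, adjusted p = 0.0218). Each of these 4 EV calls was lost in 2 or 3 fits that left out a single library, at adjusted p up to 0.108, 0.153, 0.134 and 0.266. The library left out was EV vehicle replicate 1, EV vehicle replicate 3 or EV T3 replicate 2. That of PKP3 was also lost with GC offsets (0.13, adjusted p = 0.121), those of JUP (adjusted p = 0.144), DSP (0.101) and DST (0.104) without a filter on low counts, and that of DST in DESeq2 (0.0606) and with GC offsets (0.0548). Of 19 tested genes for proteins that bind, cleave or modify keratins, 2 rose and 8 fell in TRB cells with T3, a share near the 44.4% of all genes tested that passed, at a median of -0.10. HSPB1, a small heat shock protein that associates with filaments, was at -1.59 (adjusted p = 4.64e-30), YWHAZ, a 14-3-3 protein of the family that binds phosphorylated keratin, at -0.46 (adjusted p = 1.55e-15) and SQSTM1, the p62 protein that gathers with misfolded keratins, at -0.31 (adjusted p = 2.15e-10). In EV cells HSPB1 was the 1 gene of the list that passed, at -0.19 (adjusted p = 0.00925), and it missed the threshold without EV vehicle replicate 1 (adjusted p = 0.0516).

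Regulators tied to epithelial keratin genes, most of them transcription factors, moved in both directions. ELF3, GATA3 and FOXA1 of this list are also among the luminal markers given below. Of 25 regulators tested, 7 rose and 14 fell with T3 in TRB cells, at a median of -0.18. Of all genes tested, 22.4% rose and 21.9% fell. GRHL3, a grainyhead factor of stratified epithelium, was at -2.28 (adjusted p = 2.51e-29), EHF, an epithelial ETS factor, at -0.60 (adjusted p = 3.9e-22) and TFAP2C, the AP-2 gamma factor of luminal cells, at 0.73 (adjusted p = 1.14e-23). In EV cells 1 rose and 4 fell, among them KLF5 (-0.22, adjusted p = 0.000436). CEBPB (0.16, adjusted p = 0.0219) and SP1 (-0.15, adjusted p = 0.0183) each lost their EV call without EV vehicle replicate 1, EV vehicle replicate 3 or EV T3 replicate 2, at adjusted p up to 0.198 and 0.136, with CEBPB also lost with GC offsets (0.063, adjusted p = 0.488) and SP1 with thinned counts (0.0838) or no filter on low counts (0.122). EHF (-0.13, adjusted p = 0.0487) lost it on leaving out any 1 of 8 libraries, at adjusted p up to 0.227, and in DESeq2 (0.0756). Its call was also lost with no filter on low counts (0.301), thinned counts (0.248) and GC offsets (0.0781). The same held with CPM above 1 in 3 libraries (0.0536), a replicate block (0.0541) and the compared groups alone (0.0549). Of 9 tested genes for other intermediate filaments, T3 in TRB cells raised 1 and lowered 4, a share near the 44.4% of all genes tested that passed, at a median of -0.35. Nestin (NES) rose by 4.13 (adjusted p = 8.84e-55), while LMNB1, a lamin of the nuclear envelope, was at -0.61 (adjusted p = 3.88e-22) and vimentin (VIM), at most 7.49 CPM in any library, at -2.89 (adjusted p = 1.62e-16). In EV cells LMNA (0.14, adjusted p = 0.033) was the 1 that passed, and it was lost without EV vehicle replicate 1, EV vehicle replicate 3 or EV T3 replicate 2, at adjusted p up to 0.271, with GC offsets (0.080, adjusted p = 0.261) and with thinned counts (adjusted p = 0.151).

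Markers of luminal and basal cells also moved. Of 16 luminal markers tested, 4 of which are among the 7 keratins, 5 rose and 9 fell with T3 in TRB cells, where 22.4% of all genes tested rose and 21.9% fell. SPDEF, a luminal ETS factor, was at 0.64 (adjusted p = 5.52e-24) and CLDN7, a tight junction claudin, at 0.59 (adjusted p = 3.88e-21), against AGR2 at -1.15 (adjusted p = 1.27e-24), GATA3, the luminal lineage factor, at -0.93 (adjusted p = 2.87e-21) and MUC1 at -0.62 (adjusted p = 1.71e-10). In EV cells CLDN7 (0.25, adjusted p = 1.6e-05) rose, AGR2 (-0.38, adjusted p = 9.13e-05) fell, and so did MUC1 (-0.24, adjusted p = 0.00891), which was lost without EV T3 replicate 3 (adjusted p = 0.053). The summed luminal markers overlapped in TRB cells, at 7372 to 8016 CPM with T3 and 7950 to 8304 CPM with vehicle. Most of that sum came from KRT7, KRT8, KRT18 and KRT19, with means of 1292, 1438, 913.3 and 1636 CPM in TRB cells with T3. It therefore says little about the other luminal markers. Of 13 basal markers tested, 5 of them keratins, 1 rose and 9 fell against the same background, and 5 fell in EV cells, where 1.7% of all genes tested did. Their sum was 5099 to 5293 CPM in TRB cells with T3 against 6490 to 6527 CPM in TRB cells with vehicle, and 7334 to 7924 CPM in EV cells with T3 against 7931 to 8288 CPM in EV cells with vehicle. EGFR, at 4225 to 5664 CPM over the 12 libraries, made up most of each sum. The sum also holds KRT5 and KRT17, which averaged 223.6 and 122.5 CPM in TRB cells with T3 against 899.7 and 372.7 CPM in TRB cells with vehicle. SOX9 was at -0.88 (adjusted p = 7.51e-30) and ITGB4, the hemidesmosomal integrin, at -0.88 (adjusted p = 2.44e-27) in TRB cells. In EV cells SOX9 was at -0.21 (adjusted p = 0.000318) and ITGB4 at -0.26 (adjusted p = 4.81e-05). The part of a shift between basal and luminal cells in the keratin changes was not tested.

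Markers of cells that a pure epithelial line should lack were few. Of 10 leukocyte markers 2 were tested, and both rose with T3 in TRB cells: CD14 at 3.25 (adjusted p = 1.25e-52) and CSF1R at 2.23 (adjusted p = 2.97e-30). The list summed to 219.5 to 234.3 CPM in TRB cells with T3 against 25.4 to 29.4 CPM in TRB cells with vehicle, and to 55.3 to 58.9 CPM in EV cells with T3 against 32.0 to 38.0 CPM in EV cells with vehicle. CD14 rose in EV cells too (0.80, adjusted p = 1.96e-13). The defining leukocyte gene PTPRC had at most 0.498 CPM, and CD3D, MS4A1, LYZ and NKG7 were listed at 0 in every library. Of 15 mesenchymal markers 4 were tested, of which 2 rose and 2 fell in TRB cells with T3. Of all genes tested, 22.4% rose and 21.9% fell. SPARC was at 2.55, VIM at -2.89 and FN1 at -0.27. SPARC had 61 counts in TRB cells with T3 and 7 in TRB cells with vehicle, and at most 2.06 CPM in any library. The other marker tested, COL1A1, was present in every library, at 14.6 to 21.1 CPM. The FN1 call was lost without TRB vehicle replicate 2 (adjusted p = 0.0604) and with thinned counts (0.11). That in EV cells (-0.28) was lost on leaving out any 1 of 4 EV libraries, at adjusted p up to 0.146, in DESeq2 (0.103) and with no filter on low counts (0.0615). The list summed to 47.8 to 50.1 CPM in TRB cells with T3 and 52.8 to 55.2 CPM in TRB cells with vehicle, and ZEB2, SNAI2, COL1A2, DCN and LUM were listed at 0. The endothelial list summed to at most 6.83 CPM in any library, with CLDN5 at 0. With T3 in TRB cells its 3 tested members gave CDH5 at 3.09, KDR at -2.70 and PECAM1 at 0.91, the last lost without TRB vehicle replicate 1 (adjusted p = 0.0736), TRB vehicle replicate 3 (0.0626) or TRB T3 replicate 1 (0.0668), in DESeq2 (0.0705) and with thinned counts (0.0655).

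The members were also compared by their pattern over the 12 libraries, as the root mean square difference of log2(CPM + 0.5) after centring each gene on its mean. KRT8 and KRT18, which pair in filaments, had the smallest distance among the 7, at 0.071, followed by KRT7 and KRT8 at 0.081. The measure is not scaled, so genes that vary little lie close whatever their shape: the SD over the libraries was 0.083 for KRT7 and 0.073 for KRT8, about their distance. KRT7 and KRT80 were farthest apart, at 0.61. KRT81 was nearest to KRT23, at 0.15, and KRT80 to KRT81, at 0.29, where their SDs were 0.60 and 0.31. This is a description over 12 libraries that share groups and depth.

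Among 10366 other protein-coding genes that averaged at least 5 CPM, those nearest to KRT80 were TGFB1, ZNF469 and GNE, at 0.077, 0.077 and 0.080, where KRT80 itself varied with an SD of 0.60. Their log2 fold changes with T3 in TRB cells were -1.28, -1.12 and -1.31, values near that of KRT80 because the same 12 libraries chose them. MYH14, FAM102A and NAT9 were nearest to KRT81, at 0.066, 0.076 and 0.079. LPGAT1, ARHGAP28 and CMTM6 were nearest to KRT23, at 0.045, 0.052 and 0.058. TUBA1B, H1FX and CHEK1 were nearest to KRT19, at 0.045, 0.046 and 0.047. The abundant chains that varied least had neighbours at smaller distances: CLTA and HMGA1 for KRT18 (0.034 and 0.036), CALR, MLF2 and EIF4G2 for KRT8 (0.028 to 0.036), and C1orf43, PRDX1 and PSMD2 for KRT7 (0.030 to 0.036).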

How the data were processed

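Total RNA was extracted with Trizol (RIN above 7) and 12 libraries were prepared with NEBNext Ultra II, per the labels' protocols. Per the submitters' processing notes, the build was hg38 and the tools included STAR 2.7, HTSeq 0.10, CASAVA 1.7 and DESeq2. Strand setting and annotation are not given in the sources used here, which leaves overlapping and antisense genes uncertain. Per library, the authors deposited raw counts for each gene symbol. A deposited table of normalized values, treated as a score, differed by at most 0.589 from the counts scaled by a single factor for each library, and served only as a check. Lines that name no gene (31.87% to 39.24% of alignments) were left out.

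In R 4.3.3, genes were kept by filterByExpr (minimum 10 counts, 15 summed) and scaled by TMM. All 4 group means were fitted together (8 residual degrees of freedom), with robust dispersions, and tested by quasi-likelihood in edgeR 4.0.16 (limma 3.58.1), with Benjamini-Hochberg adjustment over 14549 genes. CPM are TMM-scaled, SE was obtained by dividing the log2 fold change by the square root of F, and 95% intervals are 1.96 SE. Sums and ratios used exact permutation tests. The scripts were tested on simulated data. Replicate numbers did not pair the libraries: same-numbered libraries had deviations correlated at -0.189 to 0.152. No 2 libraries agreed within sampling noise (chi-square per degree of freedom 1.44 to 10.9). Reads had no molecular identifiers and are not independent molecules. Annotation, lengths and sequences came from GENCODE 29 on GRCh38; 86.6% of genes tested had a GC value.

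The 7 members and all gene lists were chosen with earlier results of these data known. Named beside the members were THRB, other keratins that passed at 1 CPM or more, near-identical copies, and of each list the 3 smallest p for T3 in TRB cells and up to 3 others that passed in EV cells. KRT34 and markers listed at 0 or near 0 were named for completeness, after their values were seen. Alternatives were DESeq2 1.42.0, RLE, no filter, CPM above 1 in 3 libraries, the compared groups alone, a replicate block, counts thinned to 4241863, GC offsets, each library left out, plain CPM and pseudogene counts added, and, chosen after seeing the data, KRT81 and KRT86 added together. Of the genes nearest in pattern to each member, 3 were named per member, and 1 of them is not reported here.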

Additional observations from a re-analysis of the deposited data

Results flagged for a closer look

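T3 effects that differed between the pools, by the test of the difference itself (effect in TRB cells minus effect in EV cells, log2, edgeR with Benjamini-Hochberg adjustment), were flagged. Among the 7 keratins these were KRT80 at -1.08, KRT81 at -0.65, KRT19 at -0.36 and KRT23 at -0.30, each lower in TRB cells. Among other keratins they were KRT4 at -1.93, KRT5 and KRT75 at -1.79, KRT16 at -1.74, KRT17 at -1.53, KRT6B at -1.46, KRT6A at -1.38, KRT14 at -1.32, KRT10 at -0.45 and KRT15 at -0.31. KRT75 rested on 5 counts in TRB cells with T3 and 27 in TRB cells with vehicle. Its call, at an adjusted p of 0.0459, was lost on leaving out any 1 of 9 libraries, at adjusted p up to 0.21. It was also lost in DESeq2 (adjusted p = 0.115) and with thinned counts (-0.55, adjusted p = 0.756).

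KRT5 and KRT75 had adjusted p of 5.37e-23 and 0.0459 at nearly equal differences, since KRT5 had 84308 counts over the 12 libraries. Of the linkers and keratin-binding proteins, HSPB1 was at -1.40, YWHAZ at -0.38, SQSTM1 at -0.36, PERP at -0.35, PLEC at -0.30 and JUP at -0.28. Among the transcription factors, GRHL3 was at -1.94, EHF at -0.47, KLF5 at -0.36, TFAP2C at 0.63 and CEBPB at 0.28. Of the other intermediate filaments, NES was at 4.10, VIM at -2.45 and LMNB1 at -0.53. Luminal and basal markers gave GATA3 at -0.84, AGR2 at -0.78, MUC1 at -0.38, SPDEF at 0.55, CLDN7 at 0.33, SOX9 at -0.67 and ITGB4 at -0.62. Markers of other cell types gave CD14 at 2.45, CSF1R at 1.80, CDH5 at 2.57 and KDR at -2.05, the last missing the threshold with thinned counts (adjusted p = 0.111).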

How the results depend on the processing

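The numbers of keratins called were within 1.5 times the main number under all alternatives run: 5 to 6 for T3 in TRB cells, 1 for T3 in EV cells, 2 to 4 for TRB over EV cells with vehicle, 5 to 6 with T3 and 4 for the difference. Of 728 member values recomputed, 706 kept direction and side of the threshold, and the report gives the other calls. The replicate block moved 1 member call, KRT19 in TRB over EV cells with vehicle (0.12, adjusted p = 0.0424); 3 of 12 libraries correlated best with their own number, and with the block 6437 genes passed for T3 in TRB cells, against 6456 without it. The log2 KRT8 to KRT18 ratio for T3 in TRB cells moved to 0.095 with thinned counts (exact permutation p = 0.2), where fewer counts enter.

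None of the values that changed direction passed. Most were near 0, but with T3 in EV cells KRT86 reached -0.14 and NES -0.12. With GC offsets, T3 in EV cells gave KRT19 -0.01, KRT14 -0.042, KRT16 -0.052, PERP 0.0055 and NES -0.0095. With thinned counts KRT86 was at -0.083 in TRB and -0.14 in EV cells, and with the block KRT16 was at -1e-04 in EV cells. Leaving out each library, T3 in TRB cells gave KRT8 -0.044 to 0.035 and KRT86 -0.034 to 0.23, and T3 in EV cells gave KRT14 -0.013 to 0.054, KRT16 -0.030 to 0.038, PERP -0.050 to 0.011 and NES -0.12 to 0.16. KRT7 was at -0.082 to 0.0017 for TRB over EV cells with vehicle and at -0.0039 to 0.048 with T3. The cause was not tested. Over all genes, T3 in EV cells gave 407 by DESeq2 and 376 with thinned counts, against 660.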
